A study of Homo sapiens with 2 samples.

Results

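The transcripts of 10 genes of semaphorin signalling were followed in HBEC-3KT cells, an immortalized line of human bronchial epithelium: the ligands SEMA3A, SEMA3C, SEMA3F, SEMA4B and SEMA7A, the receptors PLXNA1, PLXNB1 and PLXNB2, and the co-receptors NRP1 and NRP2. They were picked by symbol from the 60619 genes of the deposited table, and each matched 1 row. All 10 passed a filter on low counts that 13304 genes passed. The CBS library came from cells transduced with pLenti6-hCBS, which carries human CBS, the gene of cystathionine beta-synthase. The empty-vector library came from cells transduced with pLenti6 alone. Exposure to virus lasted 4 to 8 hours in both cultures, blasticidin selection was at 10 µg/mL, and growth on gelatin-coated plates took 4 to 5 days. With 1 library per group, the spread between cultures is unknown and the conditions could not be tested against each other. Both cultures came from 1 cell line grown in 2 dimensions, whose immortalization and lack of neighbouring cell types limit it as a model of airway.

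Semaphorins are secreted or membrane-bound ligands first known for steering growing axons, and they also guide epithelial, endothelial and immune cells. Plexins are their signalling receptors, which act on small GTPases and the cytoskeleton. Neuropilins bind the secreted class 3 semaphorins and pass the signal on through A-type plexins, and they also bind vascular endothelial growth factors. In the fetal mouse lung, class 3 semaphorins act on the branching of the airway epithelium.

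The libraries held 20785957 estimated counts under CBS and 20433062 under the empty vector. CBS itself had 3669 against 280 counts, a log2 fold of 3.59 (exact 95% counting interval 3.44 to 3.79), which matches the labels. CBSL, a near-identical copy whose reads cannot be told from those of CBS, had 4378 against 343. Among markers of airway basal epithelium, KRT5 stood at 1844 TPM with CBS and 2620 TPM with the empty vector (TPM is a level per transcript length and library size), and TP63 at 89.3 and 88.2 TPM. All 11 markers of that list passed the filter. KRT14, KRT15 and KRT17, 3 of the 11, were at least 2-fold lower with CBS, against 5.28% of all genes. The interval lay below a ratio of 1 for 7 of the 11 (31.1% of all genes) and above it for 2 (31.6%). Those 2 were NGFR at 0.93 (0.83 to 1.04) and EPCAM at 0.54 (0.45 to 0.63). Summed levels of markers of other cell types were 4.55 against 1.36 CPM for endothelium (CPM being TMM-scaled counts relative to library size), 6.29 against 13.7 CPM for fibroblasts and 39.8 against 124.6 CPM for immune cells. The neuroendocrine and neural list summed to 0.281 against 0.753 CPM, with none of its 9 genes past the filter. In both libraries the endothelial TEK and TIE1, the fibroblast COL1A2, COL3A1, DCN and LUM, and the immune PTPRC and CD3E had 0 counts. COL1A1 was the 1 fibroblast marker past the filter, at -1.10 (-1.44 to -0.82) on counts and -0.22 on log2(TPM + 1). Of the 7 immune markers 2 passed it, CD14 at 0.05 (-0.23 to 0.33) and CD68 at -1.96 (-2.10 to -1.84). CD68 made up most of the immune sum in both libraries. Of 8 ciliated and secretory markers, 1 passed the filter, TUBB4B, a tubulin that is not restricted to ciliated cells.

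In the CBS library the membrane-bound ligands SEMA4B and SEMA7A stood lower by 2.88-fold and 2.69-fold than in the empty-vector library. Those were the only members of the 10 that reached a 2-fold difference on counts. By the plain ratio of TPM, SEMA3C was also past 2-fold, at 2.11. SEMA3C and NRP1 were higher by 1.71-fold and 1.42-fold, while NRP2, SEMA3F, PLXNB2 and PLXNB1 were lower by 1.66-fold to 1.29-fold. PLXNA1 was slightly higher, and SEMA3A did not differ beyond counting error with TMM scaling. Folds are CBS over empty vector, or its inverse where a gene is called lower, after TMM scaling, with a prior count of 5. The ranges given in brackets are exact 95% intervals of the ratio of counts. They cover counting error only, and reads copied by PCR are not independent molecules.

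A gene was called where the fold was 2 or more and the interval left out a ratio of 1. By that rule 0 of the 10 members were higher, against 1.41% of all 13304 genes, and 2 of the 10 were lower, against 5.28%. In either direction 6.7% of all genes were called. For 3 members the interval was above a ratio of 1 (31.6% of all genes), for 6 it was below (31.1%), and for 1, SEMA3A, it included 1. An interval that excluded 1 was thus common, at 62.7% of all genes. The median log2 fold of the 10 was -0.39, beside 0.0016 over all genes, and -0.14 once the trend with GC content and length was removed. In bulk RNA, fewer cells of a type and less RNA per cell cannot be told apart, which holds for each difference given here.

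**Figure D1:**
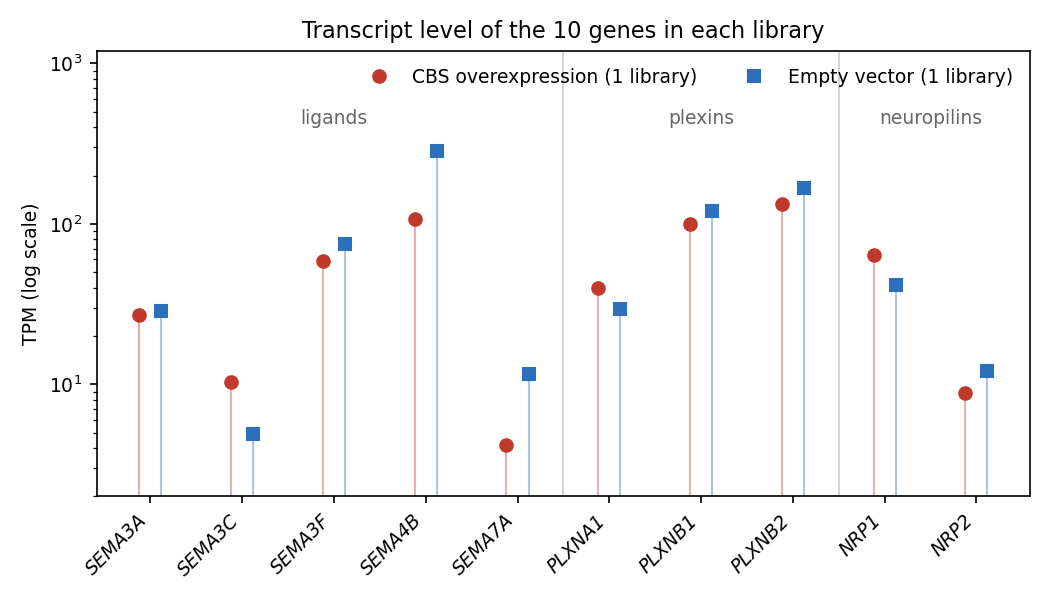
Transcript level in TPM on a log axis of the 10 genes, with the CBS library as red circles and the empty-vector library as blue squares, 1 library each and so with no error bar. SEMA4B stood at 107 TPM with CBS and 284 TPM with the empty vector, the largest difference in TPM of the 10, while by ratio SEMA7A stood further apart (0.363 against 0.379).

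Start-site windows are shown for the genes furthest apart, SEMA4B, SEMA7A and SEMA3C, and for PLXNA1, which holds 1 of the motifs searched. Windows of RefSeq (GRCh38.p14), from 250 bases before to 50 bases after a transcript start, were matched by symbol for 8 of the 10 members, 15 windows in all. The motifs searched on both strands were ACGTG and GCGTG, the core letters of the hypoxia response element, and TGANTCA, the letters of the AP-1 site. ACGTG also lies inside CACGTG, an E-box. Capitals mark the matches, and each sequence runs 5′ to 3′ along its gene's strand.
SEMA4B, first window, chr15:90201080-90201379, plus strand: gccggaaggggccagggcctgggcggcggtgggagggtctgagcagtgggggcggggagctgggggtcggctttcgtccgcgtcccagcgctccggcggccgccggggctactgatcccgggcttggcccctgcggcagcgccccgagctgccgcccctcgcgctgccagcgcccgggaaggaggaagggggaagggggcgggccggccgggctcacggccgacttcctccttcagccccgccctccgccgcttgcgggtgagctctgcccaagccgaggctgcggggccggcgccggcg
SEMA7A, second window, chr15:74433655-74433954, minus strand: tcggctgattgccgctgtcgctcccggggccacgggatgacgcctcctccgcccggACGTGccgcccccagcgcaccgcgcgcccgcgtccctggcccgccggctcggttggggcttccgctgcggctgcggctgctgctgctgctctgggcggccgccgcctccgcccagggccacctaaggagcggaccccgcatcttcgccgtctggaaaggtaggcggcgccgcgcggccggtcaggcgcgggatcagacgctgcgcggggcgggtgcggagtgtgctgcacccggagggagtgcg
SEMA3C, first window, chr7:80922340-80922639, minus strand: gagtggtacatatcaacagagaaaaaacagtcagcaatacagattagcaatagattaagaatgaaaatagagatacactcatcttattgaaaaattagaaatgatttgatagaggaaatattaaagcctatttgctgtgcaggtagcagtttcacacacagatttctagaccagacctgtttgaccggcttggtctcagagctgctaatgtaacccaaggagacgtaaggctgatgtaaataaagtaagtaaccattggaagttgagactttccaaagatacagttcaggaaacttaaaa
PLXNA1, chr3:126982865-126983164, plus strand: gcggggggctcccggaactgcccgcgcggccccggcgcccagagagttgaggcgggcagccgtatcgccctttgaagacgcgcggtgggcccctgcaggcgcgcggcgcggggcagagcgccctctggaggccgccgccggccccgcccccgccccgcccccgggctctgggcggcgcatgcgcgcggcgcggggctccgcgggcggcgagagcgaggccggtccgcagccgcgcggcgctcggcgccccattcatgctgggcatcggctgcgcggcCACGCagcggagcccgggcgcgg
ACGTG or GCGTG was found in 2 of the 15 windows, the second of SEMA7A and that of PLXNA1, 1 match each, and in 48.4% of 35116 windows of all genes. The PLXNA1 window ends at 126983164, outside the deposited bounds of the gene, which start at 126988594. TGANTCA was found in 0 of the 15 and in 7.71% of all windows. The first SEMA3C window held 36.0% G and C bases and its second 75.7%, while the 3 SEMA4B windows held 55.0% to 79.3% and the PLXNA1 window 83.0%. A match is only a run of letters, and a window without one says nothing of a factor's binding elsewhere.

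SEMA4B, a transmembrane semaphorin of class 4 (ENSG00000185033, GRCh38 chromosome 15, 90160604 to 90229679), had 4891 counts under CBS and 13167 under the empty vector. That is 229.4 against 661.0 CPM, a log2 fold of -1.53 (-1.58 to -1.48). It was the most abundant semaphorin of both libraries by TPM. Its log2 fold ranked 266 from the lowest of 13304 genes. Of the 4404 genes with at least 1000 counts in 1 library, 2.95% were at least 2-fold lower and 0.704% at least 2-fold higher, and 47 had a lower fold than SEMA4B. Its share of all semaphorin counts, which no scaling of the libraries can alter, was 35.7% (34.92 to 36.53, exact binomial) with CBS and 55.6% (54.98 to 56.25) with the empty vector.

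SEMA7A is held to the membrane by a lipid anchor and binds plexin C1 and beta-1 integrins (ENSG00000138623, chromosome 15, 74409289 to 74434467). It had 159 counts under CBS and 408 under the empty vector, and its log2 fold was -1.43 (-1.73 to -1.19). With 4.18 against 11.5 TPM it was the lowest of the 10 in the CBS library. Of its receptors, PLXNC1 had 43 against 47 counts, its log2 fold being -0.20 (-0.86 to 0.40). ITGB1, the beta-1 integrin chain, was at -0.32 (-0.34 to -0.30), with 604.5 against 696.8 TPM. The immune marker CD68 was also lower beside both ligands, with 619 against 2259 counts, while PTPRC, which all leukocytes carry, had 0 counts in both libraries.

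The class 3 ligands are secreted and went in different directions. SEMA3C, which can bind both neuropilins (ENSG00000075223, chromosome 7, 80742538 to 80922359), had 629 counts under CBS and 342 under the empty vector. Its log2 fold was 0.77 (0.59 to 0.98), rank 457 from the highest of all genes. SEMA3F, a ligand that prefers NRP2 (ENSG00000001617, chromosome 3, 50155045 to 50189075), had 2649 against 3511 counts, its log2 fold being -0.50 (-0.58 to -0.43). SEMA3A, the ligand of NRP1 known as a repellent of axons (ENSG00000075213, chromosome 7, 83955777 to 84492724), had 2090 against 1850 counts. Its log2 fold was 0.08 (-0.01 to 0.17), an interval that held a ratio of 1 under TMM scaling. On plain library totals it was 0.15, and on log2(TPM + 1) the sign turned, at -0.07. Within class 3, the SEMA3C share of counts was 9.21% (8.535 to 9.921) with CBS and 4.20% (3.772 to 4.656) with the empty vector. SEMA3A made up 30.6% (29.51 to 31.71) and 22.7% (21.80 to 23.63), and SEMA3F 38.8% (37.63 to 39.96) and 43.1% (42.01 to 44.17). As shares of class 3 TPM, SEMA3C stood at 7.73% with CBS and 2.89% with the empty vector, SEMA3A at 20.1% and 16.7%, and SEMA3F at 43.7% and 43.6%.

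The neuropilins stood on opposite sides of a ratio of 1. NRP1 (ENSG00000099250, chromosome 10, 33177492 to 33336262) had 4717 counts under CBS and 3098 under the empty vector, or 63.7 against 41.6 TPM. Its log2 fold was 0.51 (0.44 to 0.57). NRP2 (ENSG00000118257, chromosome 2, 205681990 to 205798133) had 509 against 790 counts, or 8.78 against 12.1 TPM, and a log2 fold of -0.73 (-0.90 to -0.57). Per NRP2 count there were 9.27 NRP1 counts under CBS but 3.92 under the empty vector. NRP1 thus made up 90.3% (89.42 to 91.05) of neuropilin counts with CBS and 79.7% (78.38 to 80.94) with the empty vector. Endothelial cells carry NRP1 too. Of the 8 endothelial markers only CDH5 passed the filter, with 87 against 7 counts, while PECAM1 had 1 against 8 and VWF 1 against 0.

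On counts PLXNB2, PLXNB1 and PLXNA1 each lay closer to a ratio of 1 than either neuropilin. PLXNB2, a B-type plexin that SEMA4C binds (ENSG00000196576, chromosome 22, 50274979 to 50307627), was the most abundant of the 9 plexins in both libraries by TPM, with 133 TPM under CBS and 168 TPM under the empty vector. It had 7105 against 8826 counts, its log2 fold being -0.41 (-0.46 to -0.37). PLXNB1, the receptor of SEMA4D (ENSG00000164050, chromosome 3, 48403854 to 48430051), had 2967 against 3572 counts, its log2 fold being -0.37 (-0.44 to -0.29). PLXNA1, which signals for neuropilins that hold class 3 ligands (ENSG00000114554, chromosome 3, 126988594 to 127037392), had 3810 against 3216 counts, its log2 fold being 0.15 (0.08 to 0.21). Among plexin counts the PLXNA1 share was 20.4% (19.79 to 20.95) with CBS and 15.3% (14.79 to 15.77) with the empty vector. The PLXNB2 share was 38.0% (37.28 to 38.68) and 41.9% (41.25 to 42.58). As shares of plexin TPM, PLXNA1 stood at 11.99% with CBS and 7.39% with the empty vector, and PLXNB2 at 40.1% and 42.1%.

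**Figure D2:**
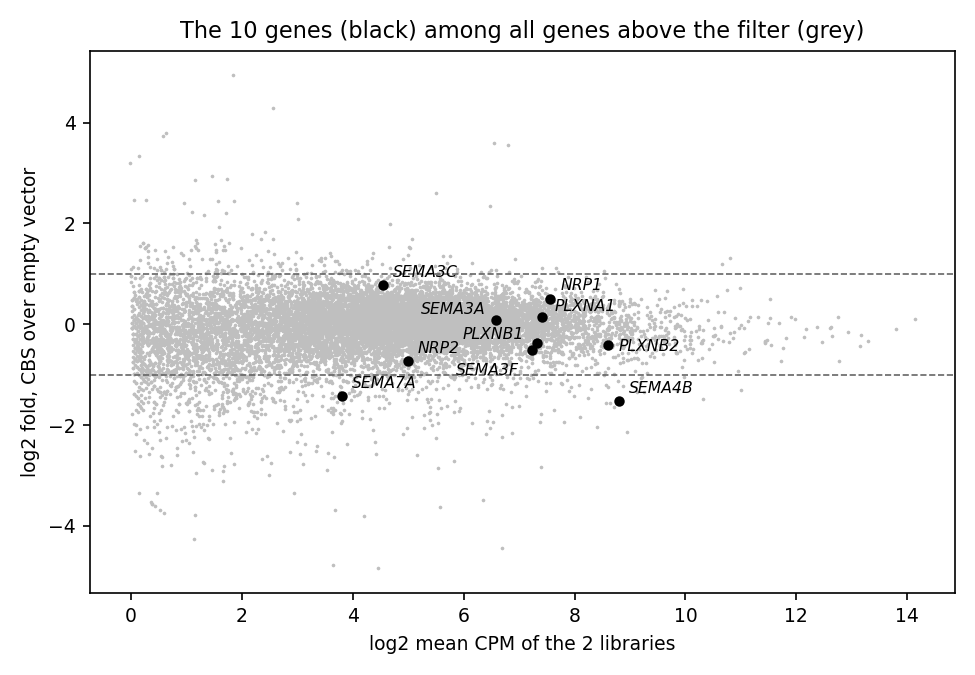
Log2 fold of CBS over empty vector against the log2 mean CPM of both libraries, for 13304 genes in grey and the 10 members in black, with dashed lines at a 2-fold difference. SEMA4B at -1.53 and SEMA7A at -1.43 lie below the lower line, SEMA4B among the abundant genes, and the other 8 lie between the lines.

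Levels can be compared between genes only per length, as TPM. In the CBS library the order was PLXNB2, SEMA4B, PLXNB1, NRP1, SEMA3F, PLXNA1, SEMA3A, SEMA3C, NRP2 and SEMA7A, from 133 down to 4.18 TPM. In the empty-vector library it was SEMA4B, PLXNB2, PLXNB1, SEMA3F, NRP1, PLXNA1, SEMA3A, NRP2, SEMA7A and SEMA3C, from 284 down to 4.93 TPM. SEMA3C was thus the lowest of the 10 with the empty vector and stood above NRP2 and SEMA7A with CBS, at 10.4 TPM. With 1 library a group, no spread shows which neighbours in these orders differ. Summed over all 20 semaphorins, the level was 280.5 TPM with CBS and 502.9 TPM with the empty vector, and without SEMA4B it was 173.1 and 219.1 TPM. The 9 plexins summed to 331.9 against 398.3 TPM, and both neuropilins to 72.5 against 53.7 TPM.

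The length that the authors' values imply for a gene's mean transcript, counts divided by TPM, was put in bases with 359 genes that have 1 transcript in GENCODE 29. For PLXNB1 it was 2092 bases with CBS and 2065 with the empty vector, while its coding transcripts in that annotation run from 5859 to 7308 bases. Its TPM thus rests on a shorter length than any of these. With the longest transcript as the length, PLXNB1 would stand at 28.5 against 33.8 TPM, near PLXNA1 at 29.5 against 24.5 TPM, and SEMA4B, at 90.1 against 239.1 TPM, would lead in both libraries. SEMA3A had an implied length of 5425 bases under CBS and 4493 under the empty vector, a ratio of 1.21 at percentile 95 of 12411 genes. For PLXNA1 the lengths were 6718 and 7554 bases, a ratio of 0.889 at percentile 7.59, and its log2 fold was 0.42 on log2(TPM + 1) and 0.15 on counts. SEMA3C had 4239 and 4794 bases, a ratio of 0.884 at percentile 7.01, and its TPM ratio of 2.11 was above its fold of 1.71 on counts. Which transcripts were made is not given by gene-level values. The fold of a gene with several transcripts depends here on whether counts or TPM are read.

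**Figure D3:**
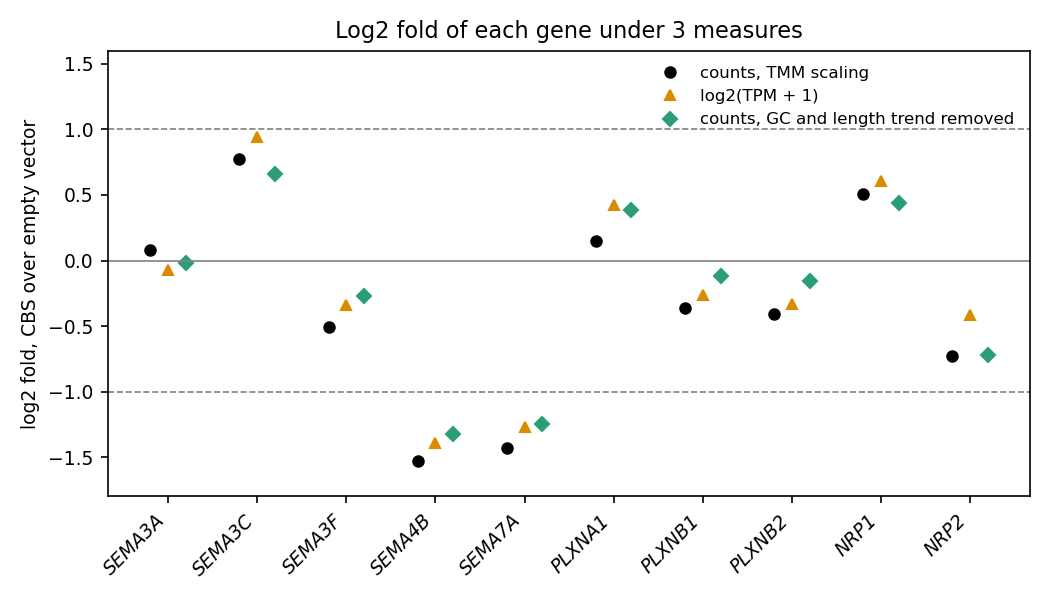
Log2 fold of CBS over empty vector for each of the 10 genes by 3 measures: TMM-scaled counts (circles), log2(TPM + 1) (triangles), and counts freed of the GC and length trend (diamonds). SEMA4B, from -1.53 to -1.32, and SEMA7A, from -1.43 to -1.24, lie past the dashed 2-fold line by each measure, and the sign of SEMA3A differs between them.

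Log2 folds declined with the GC content of transcripts over all genes, and their median was 0.12 in the 2645 genes of lowest GC content but -0.23 in the 2645 of highest. The longest transcripts of SEMA3F, SEMA4B, SEMA7A, PLXNA1, PLXNB1 and PLXNB2 had 60.5% to 63.1% GC, and SEMA3A and SEMA3C had 36.7% and 39.4%. Once the GC and length trend was removed, PLXNB1 was at -0.12 and PLXNB2 at -0.16, SEMA3F at -0.27 and PLXNA1 at 0.39. Few counts were assigned to genes that overlap the deposited bounds of the members. Strandedness was not given in the sources used here, so these counts cannot show whether reads of an overlapping gene were assigned to a member. SEMA3F-AS1, which overlaps SEMA3F, had 13 counts under CBS and 23 under the empty vector, and each of the other 7 overlapping genes had at most 5 counts in either library.

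Of the other 21 semaphorins and plexins, 12 passed the filter, and of these 0 were at least 2-fold higher (1.41% of all genes) and 3 were at least 2-fold lower (5.28%). Of the 12, 8 had an interval under a ratio of 1 (31.1% of all genes) and 2 had one over it (31.6%). SEMA6C, a transmembrane semaphorin, was at -1.55 (-2.29 to -1.11) with 34 against 102 counts. SEMA4G was at -1.15 (-2.01 to -0.62) with 27 against 62 counts, and PLXNB3 at -1.02 (-1.20 to -0.86) with 441 against 840 counts. On log2(TPM + 1) none of these 3 reached 2-fold, at -0.69, -0.55 and -0.80, though without the added 1 the TPM ratio of SEMA6C was 0.389, at 0.63 against 1.62 TPM. PLXNB3 was also short of 2-fold on plain library totals. SEMA3B, a secreted semaphorin of chromosome 3, was at -0.84 (-0.94 to -0.75) with 1460 against 2443 counts. PLXNA3, an A-type plexin, was at -0.90 (-1.03 to -0.79), while PLXNA2 of the same type was at 0.12 (0.05 to 0.19) with 3416 against 2941 counts. SEMA5A was higher at 0.63 (0.36 to 0.92) with 287 against 172 counts. Besides SEMA4B and SEMA4G, the class 4 ligands lay within 2-fold, with SEMA4A at -0.19 (-0.36 to -0.02), SEMA4C at -0.40 (-0.63 to -0.18), SEMA4D at 0.05 (-0.20 to 0.30) and SEMA4F at -0.41 (-0.65 to -0.18). The 9 genes below the filter had at most 19 counts in a library. Among them were SEMA3E, with 0 counts in both libraries, and PLXND1, its receptor, with 12 against 15.

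**Figure D4:**
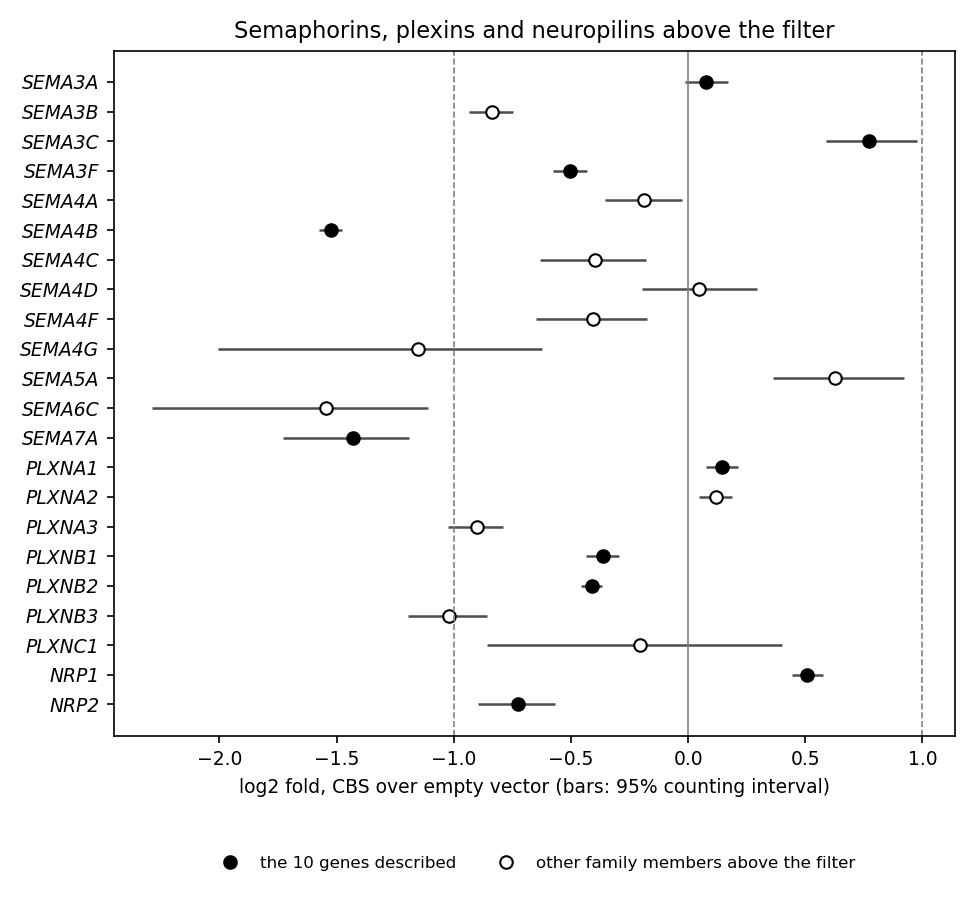
Log2 fold of CBS over empty vector, with 95% counting intervals as bars, for the 22 of 31 semaphorins, plexins and neuropilins above the filter. Filled circles are the 10 members and open circles the others, the dashed lines mark a 2-fold difference, and the points furthest to the left are SEMA6C, SEMA4B and SEMA7A.

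Of 9 listed growth factors that bind neuropilins or act beside them, 6 passed the filter. The intervals of these 6 lay below a ratio of 1 (31.1% of all genes), and 3 were at least 2-fold lower with CBS (5.28%). Below the filter, FGF2 had 20 against 10 counts, VEGFD 2 against 3 and HGF 0 in both libraries. The median log2 fold of the 6 past the filter was -0.89. VEGFA, the endothelial growth factor whose longer forms bind neuropilins, had 4891 against 10553 counts, its log2 fold being -1.21 (-1.26 to -1.16). PGF, its placental relative, was at -1.34 (-1.60 to -1.12) with 209 against 500 counts. TGFB1 was at -1.12 (-1.20 to -1.05), or -0.91 on log2(TPM + 1), and VEGFB at -0.66 (-0.81 to -0.52). The main endothelial receptors of these factors, KDR and FLT1, had 0 counts in both libraries. Each 0 allows up to 3 counts.

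Co-receptors and partners of plexins and semaphorins had a median of -0.29 over 8 of 17 genes past the filter. Of these 8, 5 had an interval under a ratio of 1 (31.1% of all genes) and 2 over it (31.6%). MET, a receptor kinase that pairs with B-type plexins, was at 0.55 (0.50 to 0.60) with 7856 against 5023 counts. Its relative MST1R was at -0.85 (-0.93 to -0.78). The integrin ITGA5 was the 1 gene of this list at least 2-fold lower (5.28% of all genes), at -1.78 (-1.87 to -1.71). PTK7, a pseudokinase that takes part in plexin signalling in chick, was at -0.33 (-0.41 to -0.25). The ligands' processing enzymes had a median of -0.59 over 7 genes, but of -0.020 on log2(TPM + 1), where the median over all genes was 0.0895. Of their intervals, 4 lay under a ratio of 1 (31.1% of all genes) and 1 over it (31.6%). Past 2-fold were 0 of the 7, against 6.7% of all genes. FURIN, which cleaves class 3 semaphorins, was at -0.59 (-0.68 to -0.51) with 1886 against 2658 counts. MMP14, a membrane protease, was at -0.99 (-1.03 to -0.94), ADAM17, a sheddase, at -0.66 (-0.76 to -0.55) and PCSK5 at -0.63 (-1.03 to -0.29). The sign of PCSK5 turned on log2(TPM + 1), at 0.059, with 1.98 against 1.86 TPM, though 0.059 lay below the median over all genes on that measure.

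The intracellular effectors of plexins had a median of 0.04 over 33 of 38 genes past the filter. Of these, 9 had an interval above a ratio of 1 (31.6% of all genes), 12 below (31.1%) and 12 that held it, and 2 were at least 2-fold lower (5.28%). MICAL1, an actin-oxidizing enzyme bound by A-type plexins, was at -1.22 (-1.46 to -1.02) with 249 against 547 counts. RRAS, a small GTPase that plexins inactivate, was at -1.10 (-1.22 to -0.99) with 894 against 1799 counts, and at -0.98 on log2(TPM + 1) and -0.84 without the GC and length trend. TIAM1, an exchange factor for RAC1, was higher at 0.97 (0.76 to 1.21). Outside semaphorin signalling, the list of netrin, slit and repulsive guidance genes had a median of -0.16 over 7 of 17 genes past the filter. On log2(TPM + 1) the sign of that median turned, at 0.091. The median over all genes also lay higher on that measure, at 0.0895 against 0.0016 on TMM-scaled counts, so 0.091 was near the centre of all genes. SLIT2, a secreted repellent, was the 1 of these 7 at least 2-fold higher (1.41% of all genes). It was at 1.27 (1.0 to 1.62), with 318 against 120 counts. On log2(TPM + 1) it was at 0.97, though without the added 1 its TPM ratio was 2.68, at 3.56 against 1.33 TPM. UNC5B, a netrin receptor, was at -0.94 (-1.18 to -0.73), the receptor ROBO3 at -0.55 (-0.80 to -0.32) and NEO1 at -0.46 (-0.61 to -0.33).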

How the data were processed

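RNA from 1 CBS and 1 empty-vector culture of HBEC-3KT was sequenced on the DNBseq platform, and groups follow the labels' genotype. The submitters' processing notes name Trimmomatic 0.39, STAR 2.6.1d, RSEM 1.3.2 and GRCh38 but not their roles. Strandedness, read layout and annotation release are not given in the sources used here. Gene-level expected counts were deposited by the authors as estimates that were rounded to whole numbers here. The authors also deposited TPM values, scaled for length and depth and used unrounded.

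The filter kept genes that reached 10 counts in 1 library and averaged 1 CPM or more. TMM factors (edgeR 4.0.16, R 4.3.3) were 1.03 for CBS and 0.975 for the empty vector, with no model fitted. Log2 folds carry a prior count of 5, and intervals are conditional binomial (Clopper-Pearson) without it. The code for folds and intervals was run on simulated counts that held counting error only (Poisson), with known library sizes. That is the error the intervals assume, so the run says nothing of scaling, copied reads or spread between cultures. Alternatives were DESeq2 1.42.0 size factors, plain totals, log2(TPM + 1), prior counts of 1 and 20, no filter, a filter of 100 counts, folds of 1.5 and 4, and lowess removal (span 0.3, statsmodels 0.14.6) of the GC and length trend, from GENCODE 29, whose longest transcripts matched all 10 members. Besides the 10 members, 13 gene lists were used. From each pathway list the text names up to 4 genes with the largest absolute log2 fold among those with at least 100 counts, and any expressed family member; a gene of the effector list that this rule takes in is not reported here. ITGB1, KDR, FLT1, SEMA3E, PLXND1 and further markers were singled out after their values were seen. Members and lists were chosen with earlier results of these data known. The scripts ran under Python 3.11.15 with scipy 1.17.1, pandas 2.3.3 and numpy 2.4.6.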

Additional observations from a re-analysis of the deposited data

How the results depend on the processing

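The calls of SEMA4B and SEMA7A as at least 2-fold lower held under each scaling, prior count, filter and measure tried, with log2 folds from -1.53 to -1.32 and from -1.45 to -1.24. At a threshold of 4-fold, 0 members were lower, and at 1.5-fold 1 was higher, which follows from the threshold. The median of the 10 was -0.31 on plain library totals, -0.30 on log2(TPM + 1) and -0.14 with the GC and length trend removed. SEMA3A ran from -0.07 to 0.15, and the other 7 kept their sign. SEMA3C was at 0.94 on log2(TPM + 1), though without the added 1 its TPM ratio was 2.11. The SEMA3A interval that held a ratio of 1 is the one under TMM scaling, and its highest fold, 0.15, was on plain library totals.

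Over all genes, the counts higher and lower were 934 and 1712 at 1.5-fold, 23 and 105 at 4-fold, 431 and 1281 without a filter, and 115 and 438 at 100 counts or more. A prior count of 20 gave 121 higher, and log2(TPM + 1), called with no interval, 377 lower. With log2(TPM + 1), medians were -0.19 for co-receptors, -0.68 for growth factors, -0.29 for other plexins and -0.020 for processing enzymes. For netrin, slit and repulsive guidance genes the median was 0.091, reversed in sign but near the median over all genes on that measure, 0.0895. With the trend removed, medians were -0.14 for co-receptors and -0.63 for growth factors. PLXNB3 was the only other plexin past 2-fold and 0 remained on plain totals, log2(TPM + 1) or with the trend removed. Of the other semaphorins 0 were past 2-fold lower on log2(TPM + 1) and 1 with the trend removed. Of the effectors 1 was lower on log2(TPM + 1) and 1 with the trend removed, while 1 was higher on log2(TPM + 1), where TIAM1 was at 0.98, and 1, TIAM1, on plain totals. No guidance gene was 2-fold higher on log2(TPM + 1) (0 of 7), SLIT2 having a TPM ratio of 2.68 without the added 1. Plain library totals differ from TMM scaling by nearly the same amount for each gene, and the median log2 fold over all genes was 0.0728 there. The cause of the differences on other measures was not tested. No paired analysis was possible because each group held 1 library, which also left no library to leave out. Differences between cultures are not covered by any interval.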
